A study of Mus musculus and Homo sapiens with 41 samples.

Results

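The regions described here carried H2AK119ub peaks in cultured mouse blood progenitors (HSPCs, haematopoietic stem and progenitor cells) of wild-type (WT) mice and had no H2AK119ub peak in WT mouse embryonic stem cells (mESCs). Bases under peaks of at least 2 of the 3 WT HSPC libraries were merged into 3638 regions on chromosomes 1 to 19, X and Y, and 453 of them (12.5%) overlapped no peak of the 6 WT mESC libraries. The 453 regions held 181.6 kb and had a median width of 341 bases (range 8 to 1453). The other 3185 regions, called shared regions here, held 1462.5 kb with a median width of 404 bases. The regions were chosen by the WT HSPC and WT mESC peak positions, so the absence of mESC peaks and the WT cover are not results, and the absence of a listed peak does not show the absence of the mark.

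CUT&Tag, in which an antibody guides a transposase to tag nearby DNA, was used in the series to map H2AK119ub and the deubiquitylase BAP1 in 41 libraries of 14 groups. HSPCs were lineage-negative, c-Kit-positive bone marrow cells of C57BL/6 mice aged 6 to 8 weeks, either WT or Tet2-/- (KO, a germline knockout backcrossed to C57BL/6), cultured for 7 days in a medium that held SCF, IL-3 and GM-CSF. They were electroporated with a control short hairpin RNA (shNC) or one against Mbd6 (shMbd6), which gave 3 groups of 3 libraries, namely WT shNC, KO shNC and KO shMbd6 (Mbd6 knockdown, KD). No WT shMbd6 group was analysed here. The 6 WT mESC libraries came from 3 untransfected samples and 3 given a control siRNA (siNC), and every chromatin sample received an equal amount of Drosophila chromatin. The labels do not say that replicates came from separate animals, so p-values measure only the spread between these samples, which may be technical. The identity of the cells could not be checked, since peak lists hold no expression.

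H2AK119ub is placed on chromatin by Polycomb repressive complex 1 and removed by the PR-DUB complex, of which BAP1 is the catalytic subunit. MBD6 is a partner protein of PR-DUB that has been linked to RNA carrying 5-methylcytosine, a base that TET2 can oxidise, and TET2 is often mutated in myeloid malignancies. RUNX factors and PU.1, an ETS family factor, bind short DNA words at many enhancers of blood cells, while GATA, C/EBP and E-box factors act in erythroid, granulocytic and other branches of the lineage.

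The sequences of the regions were of 2 kinds, and this division runs through the values that follow. A region was called tandem where at least 0.2 of its 12-base words repeated an earlier word of the same region, which held for 201 of the 453 regions (44.4%) and 637 of the 3185 shared regions (20%). The other 252 regions (55.6%) were non-tandem. The division was chosen after cover values were seen, so no test was made on it, and 12 regions lay near the cut, at 0.15 to 0.25. The sequences below are the central 240 bases of 8 regions on the plus strand of GRCm38 (mm10), each named by the gene it lies in or the nearest transcription start site (TSS).

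The first set shows non-tandem regions at blood genes, chosen after their cover values were seen. Matches to lineage factor words on either strand are in capitals. Lef1 encodes a transcription factor of lymphoid and Wnt signalling, Cd300c2 an immune receptor and Ifnar2 a subunit of the type I interferon receptor. The Lef1 stretch holds 1 RUNX match, the Cd300c2 stretch 1 PU.1 match and the Ifnar2 stretch none.
Lef1 (intron), chr3:131208649-131208888: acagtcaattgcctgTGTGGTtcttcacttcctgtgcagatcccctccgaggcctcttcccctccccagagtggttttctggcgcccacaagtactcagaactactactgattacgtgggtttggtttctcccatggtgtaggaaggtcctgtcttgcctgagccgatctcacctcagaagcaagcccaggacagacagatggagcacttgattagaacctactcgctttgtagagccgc
Cd300c2 (intergenic), chr11:115004110-115004349: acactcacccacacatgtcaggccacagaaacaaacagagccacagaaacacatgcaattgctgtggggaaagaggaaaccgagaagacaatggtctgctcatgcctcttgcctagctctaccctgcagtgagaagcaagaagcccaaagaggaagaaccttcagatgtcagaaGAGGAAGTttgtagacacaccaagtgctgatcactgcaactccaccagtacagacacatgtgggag
Ifnar2 (intergenic), chr16:91366899-91367138: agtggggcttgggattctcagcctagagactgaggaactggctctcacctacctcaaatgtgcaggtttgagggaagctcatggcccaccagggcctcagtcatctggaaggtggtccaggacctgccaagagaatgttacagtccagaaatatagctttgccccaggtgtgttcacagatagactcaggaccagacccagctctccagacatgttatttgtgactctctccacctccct

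The second set shows the 3 regions with the most matches among those that hold both a RUNX and a PU.1 word, again in capitals. Each of the 3 stretches holds 3 RUNX matches and 1 PU.1 match, and the Plpp3 stretch also holds 1 E-box. Plpp3 encodes a lipid phosphatase and Cttn the actin-binding protein cortactin.
Plpp3 (intron), chr4:105207041-105207280: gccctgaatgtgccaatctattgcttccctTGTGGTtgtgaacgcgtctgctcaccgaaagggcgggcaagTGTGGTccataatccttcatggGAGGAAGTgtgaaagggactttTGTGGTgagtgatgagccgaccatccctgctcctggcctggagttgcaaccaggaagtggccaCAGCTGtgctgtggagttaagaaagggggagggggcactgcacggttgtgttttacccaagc
Cttn (intron), chr7:144447139-144447378: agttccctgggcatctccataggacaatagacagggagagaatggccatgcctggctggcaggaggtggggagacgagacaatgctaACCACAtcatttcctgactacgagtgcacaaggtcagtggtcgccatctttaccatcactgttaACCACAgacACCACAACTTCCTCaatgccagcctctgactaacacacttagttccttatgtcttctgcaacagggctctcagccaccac
Fam19a4 (intron), chr6:97016169-97016408: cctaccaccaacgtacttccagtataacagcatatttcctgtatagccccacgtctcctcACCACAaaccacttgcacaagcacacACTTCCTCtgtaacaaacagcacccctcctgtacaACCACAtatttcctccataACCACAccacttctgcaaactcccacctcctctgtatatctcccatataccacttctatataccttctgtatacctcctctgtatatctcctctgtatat

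The third set shows tandem regions, with capitals marking 12-base words that repeat an earlier word of the region. Nlk encodes a serine/threonine kinase and Cd44 the hyaluronan receptor that takes part in homing of blood cells. Repeats of an earlier word made up 58.3% of the 12-base words of the Nlk region and 68.5% in the Cd44 region.
Nlk (intron), chr11:78658926-78659165: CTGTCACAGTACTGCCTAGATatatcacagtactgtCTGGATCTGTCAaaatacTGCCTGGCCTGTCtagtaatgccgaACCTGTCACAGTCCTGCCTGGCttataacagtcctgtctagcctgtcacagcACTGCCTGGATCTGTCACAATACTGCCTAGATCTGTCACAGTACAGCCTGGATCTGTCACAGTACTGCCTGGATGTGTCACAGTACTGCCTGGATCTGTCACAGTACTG
Cd44 (intergenic), chr2:102903407-102903646: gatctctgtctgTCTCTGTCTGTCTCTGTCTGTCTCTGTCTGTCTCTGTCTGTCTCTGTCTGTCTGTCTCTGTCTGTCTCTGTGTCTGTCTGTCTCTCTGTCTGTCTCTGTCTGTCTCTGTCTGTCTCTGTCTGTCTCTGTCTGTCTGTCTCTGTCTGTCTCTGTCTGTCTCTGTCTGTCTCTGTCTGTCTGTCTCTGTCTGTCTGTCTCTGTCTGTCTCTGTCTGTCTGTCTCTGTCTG

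Most of the regions lay away from promoters and in sequence poor in CpG. Of the 453 regions, 5 (1.10%) overlapped a protein-coding TSS, 44 (9.71%) lay within 5 kb of one and 311 (68.7%) within 50 kb, against 38.6%, 65.6% and 86.8% of the shared regions. The median distance to a TSS was 26.4 kb, against 0.131 kb for shared regions. There were 230 regions in introns (50.8%), 186 between genes (41.1%), 20 in coding exons, 7 in untranslated parts of transcripts, 5 in other exons and 5 at a TSS, and 416 different genes were nearest to them. The ratio of observed to expected CpG had a median of 0.14 over the regions and 0.70 over shared regions. A ratio above 0.6, as in CpG islands, was reached by 11 regions (2.43%) and by 1996 shared regions (62.7%). Among non-tandem sequence alone the median was 0.20, against 0.53 in shared regions over 5 kb from a TSS. The regions were also weaker in the WT libraries that chose them, with a median of 4.29 for their highest −log10 q against 5.38 in shared regions, so weaker peaks and the absence of mESC peaks go together here and cannot be told apart.

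**Figure D1:**
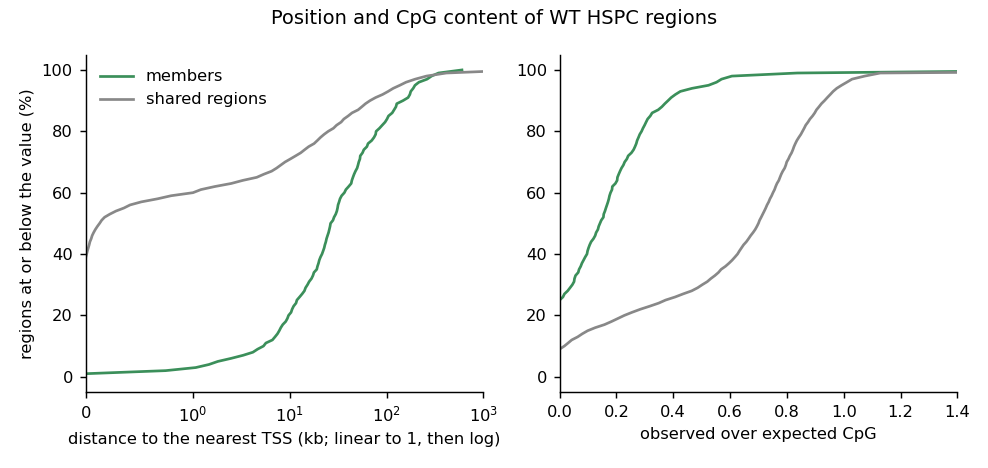
Distance to the nearest protein-coding TSS and ratio of observed to expected CpG, each as the cumulative percent of regions, for the 453 regions without WT mESC peaks and the 3185 shared regions. The distance axis is in kb, linear to 1 and then logarithmic, and the former are labelled members. The regions without mESC peaks sit farther from TSSs (median 26.4 kb against 0.131 kb) and at lower CpG ratios (median 0.14 against 0.70).

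The non-tandem regions held words bound by RUNX and PU.1 more often than their surroundings. Words were searched on both strands in the central 300 bases of each region, and a match is a description of the sequence, not of binding. The RUNX word TGTGGT occurred in 118 of 252 non-tandem regions (46.8%, 95% Wilson interval 40.8 to 53.0), in 20.5% of shared non-tandem regions over 5 kb from a TSS, in 10.7% of those within 5 kb of one and in 16.8% of 32851 mouse promoters from RefSeq (GRCm38) of the same length. In windows of equal length 1 kb to either side of the same regions, the RUNX word occurred in 24.6% of 504. The PU.1 and ETS word GAGGAAGT occurred in 45 regions (17.9%, interval 13.6 to 23.1), against 2.71% of distal shared regions, 3.2% of promoters and 2.18% of the flanking windows. These intervals cover counting error over regions only, and the words of RUNX and PU.1 can overlap by 1 base at most.

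Among the words of other factors, the E-box was also more frequent at the centre and the GATA word less frequent. The E-box CAGCTG occurred in 27.0% of non-tandem regions and in 15.7% of their flanking windows, and the GATA word AGATAA in 6.35% against 14.1%. Shared non-tandem regions over 5 kb from a TSS were alike in this, with the E-box in 21.9% against 14.0% of their flanks and the GATA word in 4.46% against 14.3%. The C/EBP word TTGCGCAA occurred in 3 regions and the octamer ATTTGCAT in 3. Of the 252 non-tandem regions, 28 held both a RUNX and a PU.1 word and 135 (53.6%) held at least 1 of them. Among tandem regions the RUNX word was found in 11.4% and the GATA and C/EBP words in none of 201.

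**Figure D2:**
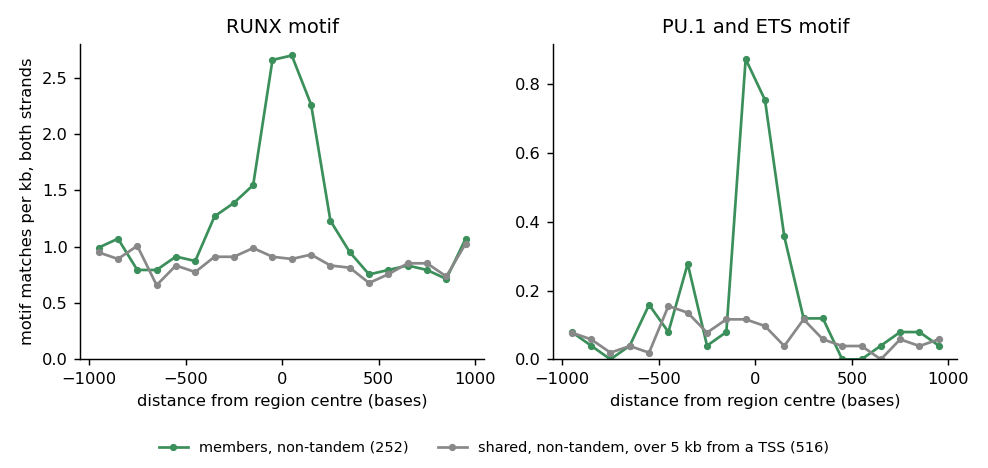
Matches per kb of the RUNX word (left) and the PU.1 and ETS word (right) in bins of 100 bases, against the distance in bases from the centre of the region, for the 252 non-tandem regions without WT mESC peaks (members, green) and the 516 non-tandem shared regions over 5 kb from a TSS (grey). RUNX reached 2.66 to 2.70 matches per kb in the central bins, and PU.1 reached 0.754 to 0.873, while the grey lines show no such peak at the centre.

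After Tet2 loss, most of the regions had no listed peak, and those that kept one were mostly tandem. The percent of the regions' bases under peaks was 74.6, 82.5 and 75.3 in the 3 WT shNC libraries and 19.1, 23.7 and 21.0 in the 3 KO shNC libraries (21.2% ± 2.30, SD, n = 3). The KO libraries all lay below the WT libraries, but WT peaks chose the regions, so the fall is a description with no test. Regions found from 2 WT libraries alone had 56.3%, 65.1% and 58.2% of their bases covered in the WT library held out (59.9% ± 4.64, SD, n = 3), and the same regions had a mean of 27.8% in the KO libraries. Of the 453 regions, 293 (64.7%) had no peak in any KO shNC library and 41 (9.05%) had one in all 3, against 59.0% and 15.4% of all 3638 regions.

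Cover in KO cells differed between the kinds of sequence. Non-tandem regions had 7.47%, 7.62% and 7.46% of bases covered in the KO shNC libraries, and tandem regions 29.1%, 37.5% and 32.6%. In held-out WT libraries these kinds had 48.5% ± 8.71 and 68.0% ± 7.32 (SD, n = 3). No KO shNC peak was listed in 216 of 252 non-tandem regions (85.7%) and in 77 of 201 tandem regions (38.3%). Of the 93 regions with a peak in at least 2 KO shNC libraries, 78 were tandem (83.9%). Shared regions went the same way, with 16.9% of non-tandem and 59.6% of tandem bases covered in KO cells. Tandem copies are hard to place for short reads, and the part of read placement in these values was not tested.

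**Figure D3:**
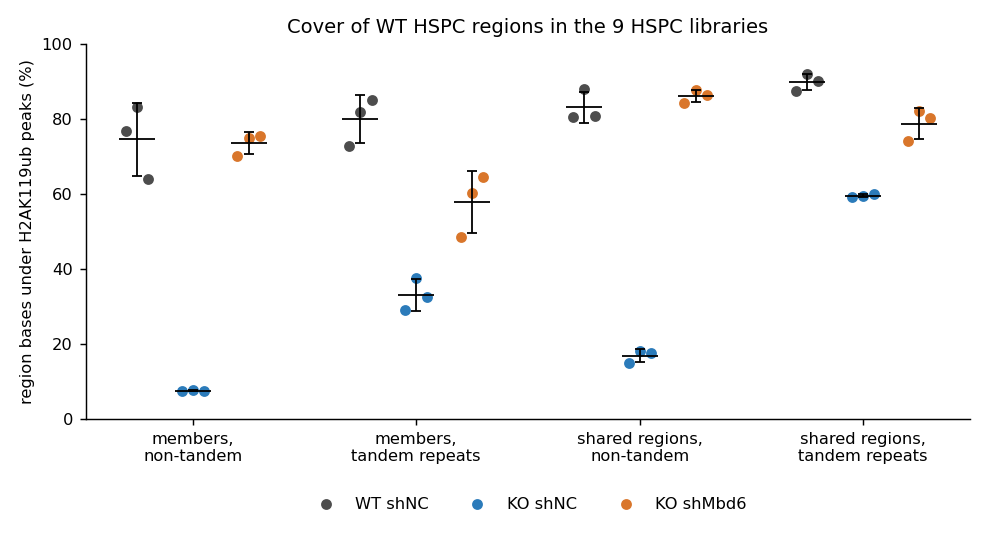
Percent of bases under H2AK119ub peaks in each of the 9 HSPC libraries, for regions without WT mESC peaks (members) and shared regions, each divided into non-tandem and tandem sequence. Points are libraries, long lines are group means and error bars 1 SD (n = 3); non-tandem regions without mESC peaks lie at 7.46 to 7.62% in KO shNC and at 70.1 to 75.4% in KO shMbd6.

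Mbd6 knockdown in KO cells was tested on libraries that did not choose the regions. The percent of their bases under peaks was 58.5, 67.1 and 69.5 in the KD libraries (65.1% ± 5.79, SD, n = 3), all above the 19.1 to 23.7% of the KO shNC libraries. Covered length in the regions was 3.07 times higher after knockdown (log2 difference 1.62, exact two-sided permutation test, p = 0.1, the smallest that 3 against 3 libraries allow). The KD libraries covered more of the genome than any other HSPC library, 3.43 to 3.95 Mb against 0.648 to 0.681 Mb in KO shNC and 1.89 to 2.24 Mb in WT. When each library was scaled to equal total covered length, the direction turned and cover in the regions was 0.547 times that of KO shNC (log2 difference −0.87, exact p = 0.1). The regions thus took 5.80% ± 0.485 of all covered bases in KO shNC, 3.17% ± 0.133 in KD and 7.00% ± 0.267 in WT libraries (SD, n = 3). Peaks listed on the Drosophila chromatin numbered 48 to 56 in WT, 205 to 231 in KO shNC and 85 to 95 in KD libraries, and the part of library yield in the rise was not tested.

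Most of the added cover lay in non-tandem regions, where the mean covered length was 6.33 kb in KO shNC and 61.9 kb in KD libraries, against 32.2 and 56.2 kb in tandem regions. Non-tandem cover was 70.1%, 74.9% and 75.4% in the KD libraries, so every KD library lay far above the 3 KO shNC libraries. Tandem regions reached 48.5%, 60.4% and 64.5% after knockdown, above KO shNC in every library. Regions found from 2 WT libraries gave a mean KD cover of 79.7% in non-tandem and 66.6% in tandem sequence, against 48.5% and 68.0% in the WT library held out. A pattern of no peak in any KO shNC library and a peak in 2 or 3 KD libraries was found in 213 of the 453 regions (47.0%), namely 176 of 252 non-tandem (69.8%) and 37 of 201 tandem regions (18.4%). It was found in 51.4% of all 3638 regions, 52.0% of shared regions and 62.3% of shared non-tandem regions. A further 76 regions had peaks in 2 or 3 libraries of both KO groups, of which 64 were tandem. In 32 regions no KO library of either kind had a peak.

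**Figure D4:**
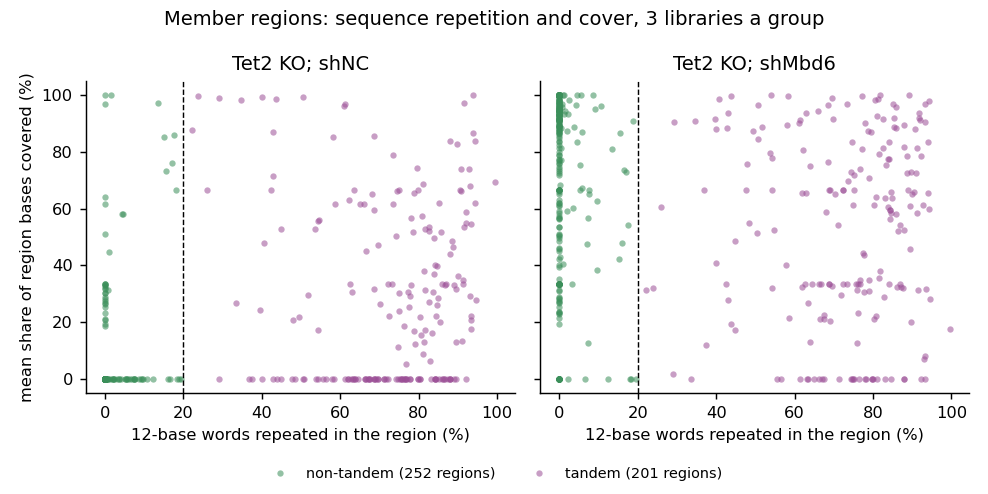
Percent of bases covered in each of the 453 regions, as the mean of 3 KO shNC libraries (left) and 3 KO shMbd6 libraries (right), against the percent of 12-base words that repeat an earlier one; the dashed line is the cut at 20%. Points near 0 on the left are mostly non-tandem regions (216 of 252 at 0), and the regions with KO cover lie mainly at high repetition.

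Region by region, the knockdown was tested with limma on covered kb over all WT HSPC regions with a peak in at least 3 of the 6 KO libraries. This filter kept 279 of the 453 regions, of which 150 had no peak in any KO shNC library and so passed through the KD group alone. A rise was called in 162 of the 453 regions and a fall in 3 (limma, Benjamini-Hochberg adjusted p under 0.05). The rises made up 58.1% of the 279 tested, while over all 2936 regions tested 64.1% were called higher and 0.92% lower. A high share of rises was thus common to WT HSPC regions. By kind, rises were called in 84.1% of tested non-tandem regions, against 76.9% of shared ones. For tandem sequence the shares were 20.9% and 17.7%. The order turned when untested regions were counted too. Rises then made up 54.8% of non-tandem regions against 63.7% of shared ones, and 11.9% against 15.2% for tandem sequence. With scaling to equal total covered length, 149 of the 453 regions were called higher and 39 lower, and over all regions 1493 and 538. Of the 162, 147 had no KO shNC peak, so that the count mostly restates the filter, and the other 15 had one. A group at 0 in all libraries also adds no spread, which can make such p-values too small. The 3 KD libraries all exceeded the 3 KO shNC libraries in 188 of 453 regions (41.5%) and all fell below them in 7 (1.55%), where the figures over all 3638 regions were 61.7% and 1.84%. The count was 148 of 252 for non-tandem regions (58.7%) and 40 of 201 for tandem regions (19.9%), and distal shared non-tandem regions stood at 61.8%.

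Over both kinds of sequence together, cover added after knockdown was smaller in value in these regions than in shared regions. The test of this could not pass 0.05. Percent of bases covered in the regions minus that in shared regions was −8.01, −5.91 and −8.32 points in KO shNC and −23.0, −19.0 and −15.2 points in KD libraries. The KD and KO shNC values did not overlap, and their means differed by −11.6 points (exact two-sided permutation test, p = 0.1, the smallest possible). The size depended on the choice of regions. It was −0.465 points (exact p = 0.8) when the peaks of all 18 mESC libraries were used to leave regions out, −5.10 points with peaks of all 3 WT libraries required, −6.98 points without WT replicate 3, −7.42 points without WT replicate 2 and −21.5 points with peaks of a −log10 q of at least 5. With tandem regions left out of both sets, an alternative chosen after seeing the data, it was −3.33 points. With scaling to equal covered length it turned to 13.3 points. Within tandem sequence, mean cover went from 33.1% in KO shNC to 57.8% in KD, against 59.6% to 78.8% in shared regions. Within non-tandem sequence it went from 7.52% to 73.5%, against 21.9% to 81.8% in shared regions over 5 kb from a TSS. In these 2 pairs the rise was larger in value in the regions described here, which was not tested. Against all shared non-tandem regions, which went from 16.9% to 86.2%, it was smaller in non-tandem sequence.

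Few protein-coding genes of any kind were close to these regions, and those of the blood lineages were no exception. Lists of 46 HSPC regulators, 48 granulocyte and monocyte, 47 lymphoid, 48 erythroid and megakaryocyte and 28 mast cell genes had no member with a region within 5 kb of its TSS. Receptors and signalling genes had 1 each, Cd44 of 49 and Socs1 of 50, where 49 of all 21938 protein-coding genes (0.223%) had one. Within 50 kb or inside the gene, regions were found at Cdk6 and Nkx2-3 among HSPC regulators, Foxo1 and Lef1 among lymphoid genes, and Itgb3 and Selp among erythroid and megakaryocyte genes. They were also found at Ifnar2, Il10rb and Cd44 among receptors, Socs1 and Fyb among signalling genes and at the chromatin gene Eed, and at none of the granulocyte and monocyte genes or mast cell genes. Over all protein-coding genes the figure was 3.38%, and each of these 8 lists stood between 0% and 6.12%. Among the comparison lists, Gsc was the single non-blood gene of 42, and Eef1a1, Rps18 and Tubb5 stood for 46 housekeeping genes.

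Regions at lymphoid genes and at a receptor gene had no KO shNC peak and were covered in every KD library. These and the other examples beyond 5 kb, and Cd37, Cd300c2 and Spns3, were chosen after their values were seen. Those with no KO shNC peak could be tested only through their KD peaks, so their values are given as a description, with no p. An intron of Lef1 held a region at chr3:131208467-131209071, 63030 bases from its nearest TSS (Hadh), with 0.568, 0.605 and 0.285 kb covered in WT, none in KO shNC and 0.605 kb in each KD library. The region 5585 bases upstream of Ifnar2 (chr16:91366839-91367198) had 0.281, 0.36 and 0.301 kb in WT, none in KO shNC and 0.358, 0.359 and 0.36 kb in KD. The KD peaks spanned all or nearly all of both regions. Covered length cannot exceed the region width, so the close values of the KD libraries do not measure agreement in signal. In an intron of Foxo1, a transcription factor of lymphoid and stem cells, a region at chr3:52343533-52344029 had 0.497 kb in 2 WT libraries, none in the third and none in KO shNC. Its KD libraries had 0.26, 0.425 and 0.468 kb. These KD libraries differed from each other but none overlapped KO shNC.

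Stem cell and megakaryocyte genes showed the same order of levels, with exceptions. A region in an intron of Selp, the P-selectin gene of platelets and endothelium, at chr1:164135422-164136044 had 0, 0.623 and 0.623 kb in WT, none in KO shNC and 0.623 kb in every KD library. The region 40209 bases upstream of Cdk6, a cell cycle kinase of stem cell activation, at chr5:3300973-3301276 had 0, 0.304 and 0.304 kb in WT, none in KO shNC and 0.248, 0.281 and 0.304 kb in KD. Both had 1 WT library without a peak, and their KD libraries all had one. The region near Nkx2-3, nearest to the TSS of Slc25a28 at chr19:43648611-43648826, had 0.216 kb in 2 WT libraries and in all 3 KD libraries, and none in KO shNC. Runx3, a RUNX factor of lymphoid and myeloid cells, had a region 50397 bases upstream with 0.409, 0.4 and 0.441 kb in KD and none in KO shNC. The exception was an intron of Itgb3, the platelet integrin beta 3 gene, where a single KD library had 0.223 kb and the others had none, so that region did not pass the filter.

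Signalling and immune genes were covered as follows. The TSS of Cd37, a tetraspanin of mature lymphocytes, had 0, 0.259 and 0.259 kb in WT, none in KO shNC and 0.259, 0.232 and 0.243 kb in KD. All 3 KD libraries thus lay above KO shNC. Socs1, an inhibitor of cytokine signalling, had a region at its TSS (chr16:10785420-10785864) with 0.445 kb in 2 WT libraries and in 1 KD library alone, which was not tested. A second Socs1 region, 30629 bases downstream, had 0.248, 0.236 and 0.248 kb in KD and none in KO shNC. Ccl17, a chemokine that draws T cells, had 0.24, 0.308 and 0.25 kb in KD in a coding exon, with none in KO shNC. The region 43318 bases upstream of Tlr2, a receptor of innate immunity, had none in KO shNC and 0.19, 0.261 and 0.252 kb in KD.

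Regions at blood genes with tandem sequence went other ways. Cd44, 1687 bases upstream of the TSS at chr2:102903352-102903702, had 0.331, 0.351 and 0.275 kb in WT, 0.275, 0.351 and 0 kb in KO shNC and 0.285, 0.279 and 0.243 kb in KD. Its groups overlapped and the difference of 0.0603 ± 0.101 kb (SE) did not pass the test (limma adjusted p = 0.606). A region near Eed, a Polycomb subunit gene, had 0.269, 0 and 0.263 kb in KO shNC and no peak in any KD library. A region in an intron of Fyb, an adaptor of T cell signalling, had peaks in all 3 WT libraries, in none of KO shNC and in 1 KD library (0.319 kb). The Eed and Fyb regions were in too few libraries to be tested.

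Within 5 kb of a TSS, the 8 largest called rises with groups that did not overlap included Dmwd, Gsc, Gcnt3, Hdac10, Casp6 and Ccl17, and no called fall lay that close. These 6 had no KO shNC peak and passed the filter through KD alone, and their KD means ran from 0.266 kb at Ccl17 to 0.487 kb at Dmwd. Gsc, a homeobox gene of the early embryo, had 0.461 kb in 2 WT libraries and in all 3 KD libraries. Casp6 encodes a caspase and had 0.242, 0.306 and 0.306 kb in KD, and Hdac10, a deacetylase gene, had 0.371, 0.381 and 0.221 kb.

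**Figure D5:**
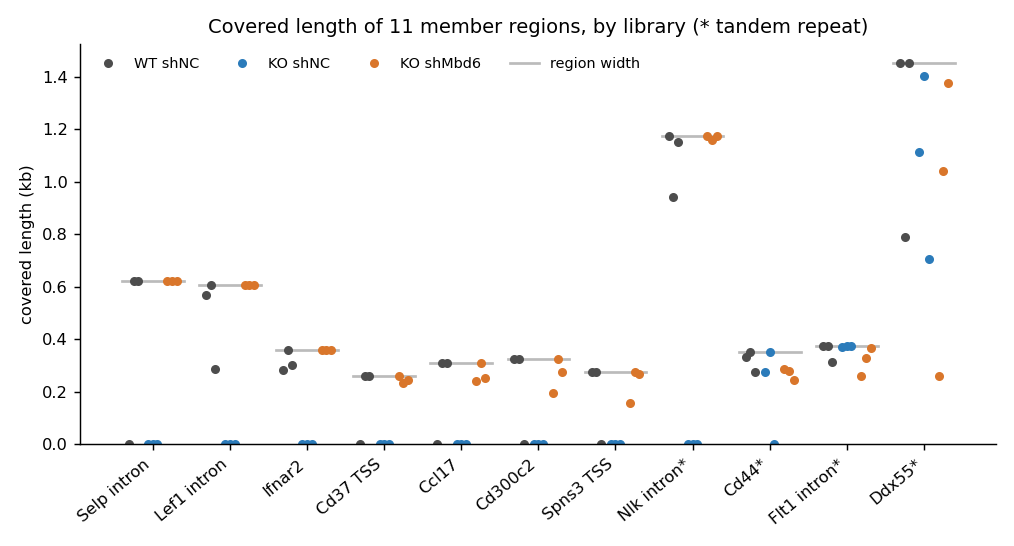
Covered kb of 11 of the regions (members) in each HSPC library, with points for the libraries of WT shNC, KO shNC and KO shMbd6, grey lines for the region width and asterisks for tandem sequence. Most of the plotted regions at blood genes were chosen after their values were seen, so their pattern follows from the choice. Those with non-tandem sequence stand at 0 in the 3 KO shNC libraries and have cover in every KO shMbd6 library. Some reach their full width, such as 0.605 kb at Lef1. Others fall short in single libraries, such as 0.194 kb of 325 bases at Cd300c2 and 0.156 kb of 274 bases at Spns3. The tandem region at Cd44 overlaps between groups. The regions at the Itgb3 intron, the Socs1 TSS, Fyb and Eed, which went other ways, are not plotted.

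Windows of 5 kb to each side of every TSS gave the levels at lineage genes whether or not a region lay there. Of 358 genes in 8 blood, receptor, signalling and chromatin lists, 73 windows had peaks in at least 3 of the 9 HSPC libraries. Of these, 53 were called higher after knockdown and 0 lower (limma, adjusted p under 0.05), or 72.6% of those tested, where 72.0% of all 4250 windows tested were called higher and 0.0941% lower. With scaling to equal total covered length, 26 of the listed windows were called higher and 2 lower. The 53 included Kit, the SCF receptor, Bmi1, a PRC1 subunit, and Irf4, a lymphoid and macrophage factor, each with no KO shNC peak. Kit and Irf4 had peaks in all 3 KD libraries, which alone met the filter. Bmi1 had 0, 1.06 and 0.935 kb in KD, so 1 KD library was level with KO shNC. Itga2b, the platelet integrin alpha gene, was also called but had none in WT and KO shNC. Its window passed the filter through KD alone, as did others of the 53 such as Cdk6, Asxl1 and Kitl. Such calls restate the filter, and groups at 0 in all libraries add no spread, which can make these p-values too small. Cebpa, which drives granulocyte formation, had none in WT and KO shNC and 0.931, 0.38 and 0.417 kb in KD, so its window passed the filter through KD alone, and no region described here lay in its window. The window at Socs1, which holds such a region and had no KO shNC peak, was 0.483 kb higher in KD on average. The region itself had 0, 0.445 and 0 kb in KD and the window 0.37, 0.569 and 0.51 kb. Most of the window's KD cover thus lay outside the region. Socs3 (0.347 kb, limma adjusted p = 0.0867) and Cd44 (0.093 kb, 0.397) did not pass. Gata1, Gata2, Runx1, Spi1, Nfkbia, Pou5f1, Nanog and Actb were listed at 0 in all 9 libraries.

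The 8 widest regions were all tandem and varied widely after Tet2 loss. They were at Ddx55 (1453 bases), Tmem106c, Zfat, Fam186a, Nlk, Ifnlr1, Faim2 and Spag1 (1114 bases), and 5 of the 8 did not pass the test. The Nlk region, in an intron at chr11:78658460-78659632, had 1.173, 0.941 and 1.152 kb in WT, none in KO shNC and 1.173, 1.161 and 1.173 kb in KD, so that it too could be tested only through its KD peaks. Ddx55, an RNA helicase gene, had 1.115, 1.404 and 0.704 kb in KO shNC and 0.258, 1.042 and 1.375 kb in KD, so its groups overlapped (limma adjusted p = 0.665). Zfat and Spag1 had cover in 1 KO shNC library each and rose by 0.71 and 0.803 kb (limma adjusted p = 0.0255 and 0.0257).

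Among regions of at least 300 bases, cover was kept most fully in KO shNC at Flt1 (99.5% of bases), Bicd1 (99.1%), Gata6 (98.7%), Slc14a1 (98.4%), Rbfox1 (97.2%) and Hnf4g (96.8%). None of the 6 lay within 50 kb of its nearest TSS, and 4 of them held at least 10 telomere-type units (GGTTAG or its complement). Flt1 had 0.369, 0.375 and 0.375 kb in KO shNC and 0.258, 0.327 and 0.367 kb in KD, lower in every KD library without passing the test (limma adjusted p = 0.161). Bicd1 had 0.471, 0.484 and 0.484 kb in KO shNC and 0.417, 0.448 and 0.448 kb in KD, and was 1 of the 3 called falls (limma adjusted p = 0.0241). The others were a region in an intron of Cdh18 and a narrow one of 25 bases near Zfp536, both named after their values were seen.

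Regions with and without RUNX or PU.1 words alike had little cover in KO shNC and high cover in KD libraries. Non-tandem regions with a RUNX word had 4.31%, 5.81% and 7.04% of bases covered in KO shNC, against 10.4%, 9.31% and 7.84% without one, and 77.6% ± 2.80 against 69.6% ± 3.70 in KD (SD, n = 3). With a PU.1 word, cover was 5.40% ± 2.62 in KO shNC and 75.8% ± 3.54 in KD, and without one 7.96% ± 0.522 and 73.0% ± 3.30. Regions with a RUNX word were lower in every KO shNC library and higher in every KD library than those without. These splits were made after the values were seen and were not tested.

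Few of the regions had H2AK119ub peaks in Tet2-KO mESCs. A peak in at least 2 of 3 libraries was found in 21 regions (4.64%) of untransfected KO mESCs, 46 (10.2%) with siNC, 42 (9.27%) with siRNA against Mbd6 and 55 (12.1%) with siRNA against Nsun2, an RNA cytosine methyltransferase gene. The shared regions stood at 91.1%, 46.8%, 55.8% and 43.3%. They have WT mESC peaks by the rule and the other regions have none, so this contrast is largely set by the rule. Libraries of untransfected KO mESCs covered 15.1 Mb on average, against 3.47, 4.07 and 3.34 Mb with siNC, siMbd6 and siNsun2. The part of library size in the differences between these groups was not tested. Only 8, 9, 7 and 8 of the 252 non-tandem regions had such peaks, against 13, 37, 35 and 47 of the 201 tandem regions.

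At the edge of the rule, 41 regions had a WT mESC peak within 1 kb and 26 had none within 50 kb, with a median gap of 7.29 kb. The 3 regions closest to an mESC peak, near Lipg, Cdca4 and Nupr1l with gaps of 1, 9 and 31 bases, had 58.2%, 0% and 30.1% of bases covered in KO shNC and 100%, 100% and 95.05% in KD. The 3 shared regions with the smallest overlap, near 3110070M22Rik, R3hcc1 and Fam19a4 with 1, 1 and 3 shared bases, had 72.2%, 0% and 100% in KO shNC and 95.2%, 64.8% and 66.7% in KD. There were 299 regions with peaks in exactly 2 WT libraries and 154 with peaks in all 3, and KO shNC cover was 11.3% ± 0.662 in the former and 32.1% ± 4.26 in the latter (SD, n = 3).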

How the data were processed

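H2AK119ub and BAP1 CUT&Tag peak lists of 29 mouse libraries were read; the 12 K-562 libraries were not used here. Per the submitters' processing notes, the authors trimmed reads with Trimmomatic 0.39, aligned them with Bowtie2 2.4.1 to mm10 with Drosophila sequence, removed duplicates with Picard and called broad peaks per library with MACS2 (broad cutoff 0.01). The deposited files give peak positions with a fold enrichment ratio, −log10 p-values and q-values and a score. Lists hold no reads, so sequencing depth is unknown, a base outside peaks counts as 0, and the authors' spike-in scaling is not part of them. No library made with a control antibody was analysed here.

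Members and gene lists were chosen with earlier results of these data known. Regions, distances (GENCODE vM21) and sequences (GRCm38) were computed in Python 3.11.15 with pandas 2.3.3, pysam 0.24.0 and samtools 1.23.1. Covered kb was tested with limma 3.58.1 in R 4.3.3 (Benjamini-Hochberg adjusted p under 0.05), regions over the 6 KO libraries and windows of 10 kb over all 9 HSPC libraries, and single values with exact permutation tests. Results for a few items are not reported here. Peaks on unplaced, mitochondrial and Drosophila sequence were left out.

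Genes were named by rule, apart from the examples chosen after their values were seen. The rules took regions within 5 kb of a listed gene's TSS and the 8 largest called rises and falls within 5 kb of a TSS. They also took the 8 widest regions, the 6 best kept in KO shNC among those of at least 300 bases, and 10 fixed windows. The alternatives were scaling, a stricter q, other WT or mESC library rules, left-out repeats, 9 libraries in the fit, the replicate block and each library left out. In simulated data for the KD against KO shNC test over 2936 regions, 49 of 100 changes of 0.3 kb and 89 of 100 of 0.6 kb were recovered, with 12 false calls among 150.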

Additional observations from a re-analysis of the deposited data

Results flagged for a closer look

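Peaks of BAP1 in WT mESCs, which lie outside the main measurement, fell in some of the regions that had no WT mESC H2AK119ub peak. The 2 BAP1 libraries touched 24 and 30 of the 453 regions, and 18 regions (3.97%) were under peaks of both, against 156 of the shared regions (4.90%). Of the 18, 12 held at least 10 telomere-type units (GGTTAG or its complement), and 12 of the 16 regions with that many units (75%) were under both BAP1 libraries, against 6 of the other 437. These 16 regions kept H2AK119ub cover in KO shNC HSPCs, with a mean of 75.3% of bases, and had 65.3% in KD. No control antibody library of mESCs was analysed here, and the part of repeat sequence in these BAP1 peaks was not tested.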

How the results depend on the processing

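Covered length turned from a rise of 1.62 to −0.87 (log2) and the difference from shared regions from −11.6 to 13.3 points with scaling to equal total covered length, which also gave 39 falls, 26 lineage windows higher and 2 lower. Peaks of all 3 WT libraries gave 164 regions, a KO shNC cover of 36.9%, 57 rises and 1 fall. Peaks with a −log10 q of at least 5 gave 141 regions, 30.8%, 28 rises and 14 windows higher. Leaving tandem regions out (chosen after seeing the data) gave 252 regions, 7.52% and 1 fall, and leaving soft-masked regions out 15.2%. Cover was 25.1% when regions with under 50% of their bases under mESC peaks were kept, and 12.6% with the peaks of all 18 mESC libraries, which gave 1 fall, as did all 9 HSPC libraries in the model.

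With each library left out in turn, the regions numbered 235 to 277 (WT libraries only, since both others must then agree), KO shNC cover was 25.8% to 29.1%, rises 80 to 163, falls 0 to 5 and windows higher 49 to 54. Leaving out a KO shNC or KD library alone gave 148 to 163 rises. Covered length stayed at 1.31 to 1.70 (log2) and the difference from shared regions at −13.6 to −6.98 points.

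Replicate numbers marked no shared source, and same-numbered KO shNC and KD libraries did not deviate together (Pearson r −0.0532, 0.0271 and −0.0185 across regions). With the replicate number as a block, rises numbered 152, falls 2 and windows higher 54, and covered length and the difference from shared regions were again 1.62 and −11.6 (exact paired p = 0.25, the smallest possible).

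Scaling reversed named regions at Cd44 (−0.529 kb), Tmem106c (−1.51 kb), Fam186a (−2.00 kb), Ifnlr1 (−1.66 kb), Faim2 (−1.21 kb), Spag1 (−0.112 kb) and Gata6 (−1.003 kb), all tandem. With each library left out in turn, Cd44 ranged from −0.044 (without KO shNC replicate 3) to 0.132 kb, Ddx55 from −0.424 to 0.134 kb (without KD replicate 1), Fam186a from −0.191 (without KO shNC replicate 1) to 0.410 kb and Gata6 from −0.00133 (without KO shNC replicate 1) to 0.00617 kb. Of the other values of named regions and windows, 394 kept direction and side of the threshold, 19 lost the call and 8 gained it. The cause of these changes was not tested. Peak lists give no depth, so a region at 0 may have been too thinly sequenced.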
